A study of Mus musculus with 6 samples.

Results

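Aquaporins are channel proteins that let water, and in some members glycerol or other small solutes, cross cell membranes. Expression of 5 aquaporin genes, Aqp1, Aqp4, Aqp7, Aqp8 and Aqp11, was examined in the left ventricle of adult mice exposed to caffeine or vehicle before birth. These 5 genes were taken by symbol, out of 43629 genes in the count tables and out of 12 mouse aquaporin genes listed there. They were selected on results of these same hearts. Which of their values chose them is not given in the sources used here, so levels and differences alike count as used. Their differences between the groups are therefore given as a description. The adjusted p-values beside them place them among all genes tested and do not stand as tests of a list chosen in advance.

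The hearts came from male CD-1 mice, an outbred stock, at 1 year of age. Pregnant dams received normal saline (vehicle) or 20 mg/kg caffeine in that saline by intraperitoneal injection once a day from embryonic day 6.5 to 9.5, and the offspring carried no engineered allele. Each group held 3 hearts, and poly(A) RNA of the left ventricle was sequenced. The dam of each heart is not given in the sources used here, so the p-values measure the spread between hearts, and litter and treatment cannot be told apart.

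An aquaporin works as a tetramer in which each subunit holds its own pore. A pair of short loops, each carrying the residues asparagine, proline and alanine in the classical members (the NPA boxes), meet in the middle of the membrane and form the narrow part of that pore. Aqp1, Aqp4 and Aqp8 are grouped with the water channels, Aqp7 is an aquaglyceroporin that also passes glycerol, and Aqp11 belongs to a divergent subfamily found in intracellular membranes. In the heart, Aqp1 is known from the endothelium of small vessels and from red blood cells, Aqp4 from the membrane of muscle cells, and Aqp7 from glycerol uptake by muscle cells and from fat cells.

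The first of the 2 boxes shows how the members differ, and the coding stretch around it is printed 5′ to 3′ on the coding strand for the 4 members read out. Capitals mark the 3 codons of the box. The stretches come from the longest open reading frame of a GENCODE M21 transcript on GRCm38.
Aqp1: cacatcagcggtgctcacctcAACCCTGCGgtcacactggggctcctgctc
Aqp8: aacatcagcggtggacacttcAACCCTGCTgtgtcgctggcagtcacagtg
Aqp7: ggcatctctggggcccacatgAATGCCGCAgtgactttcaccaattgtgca
Aqp11: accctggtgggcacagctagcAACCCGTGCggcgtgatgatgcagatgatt

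In Aqp1 and Aqp8 the capitals encode the classical asparagine, proline and alanine. In Aqp7 the middle codon is for alanine, and in Aqp11 the last codon is for cysteine. The second box was classical in Aqp1, Aqp8 and Aqp11, and ended in serine in Aqp7. Both boxes of Aqp4 were classical. The Aqp1 stretch lies in an exon at chr6:55336695-55336745 on the plus strand, and the Aqp11 stretch at chr7:97737664-97737714 on the minus strand. The Aqp8 stretch runs from chr7:123462811-123464231 on the plus strand and the Aqp7 stretch from chr4:41035590-41036023 on the minus strand, both across an intron.

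Total counts ran from 7613011 to 10483101 per heart, with every caffeine total below every vehicle total, so 3 counts stood for 0.286 to 0.394 CPM (counts scaled by the library total). Apart from the cutoff of the low-count filter, all other CPM values given here are also scaled by the TMM factor of each library. After a filter on low counts 13092 genes were tested with edgeR's quasi-likelihood test, and a gene was called when its Benjamini-Hochberg adjusted p was below 0.05 and its fold change above 1.5 in either direction. That test called 14 genes (0.107% of those tested), 11 higher and 3 lower after caffeine. Markers of heart muscle were abundant, with summed levels of 6 cardiomyocyte markers at 32511 to 40981 CPM in vehicle and 30084 to 33624 CPM in caffeine hearts. Atrial markers were close to 0, with 4 markers summing to at most 2.15 CPM in vehicle and 2.35 CPM in caffeine hearts.

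To set the members against each other, counts were divided by exon length and scaled to CPM per kilobase. Aqp1 was by far the main aquaporin transcript of the ventricle, at 190 ± 26.3 CPM per kilobase (SD, n = 6 hearts). It made up 87.5% to 92.7% of the summed per-kilobase level of all 12 mouse aquaporins in each heart. Its level was 15.1 to 27.3 times that of Aqp7 in the same heart. The rest of the family was spread over a much wider span than separated the hearts for any single gene but Aqp4. Aqp7 stood at 9.46 ± 1.78 and Aqp8 at 8.06 ± 3.18 CPM per kilobase over the 6 hearts. Aqp4 was lower at 0.634 ± 0.622, and Aqp11 lowest at 0.0858 ± 0.0150.

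In vehicle hearts the per-kilobase order was Aqp1 (191 ± 24.4, SD, n = 3), Aqp7 (9.29 ± 0.397), Aqp8 (5.68 ± 1.37), Aqp4 (1.10 ± 0.539) and Aqp11 (0.0797 ± 0.0121). No 2 neighbours in that order had overlapping ranges. In caffeine hearts the order was Aqp1 (189 ± 33.7, SD, n = 3), Aqp8 (10.4 ± 2.54), Aqp7 (9.63 ± 2.77), Aqp4 (0.165 ± 0.135) and Aqp11 (0.0919 ± 0.0174). There Aqp8 and Aqp7 could not be ordered, because their ranges overlapped, and neither could Aqp4 and Aqp11. The place of Aqp11 depended on the length used: its exons together held 9418 bases, and its longest protein-coding transcript 3737. With the longest protein-coding transcript of each gene Aqp11 stood above Aqp4 in caffeine hearts.

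**Figure D1:**
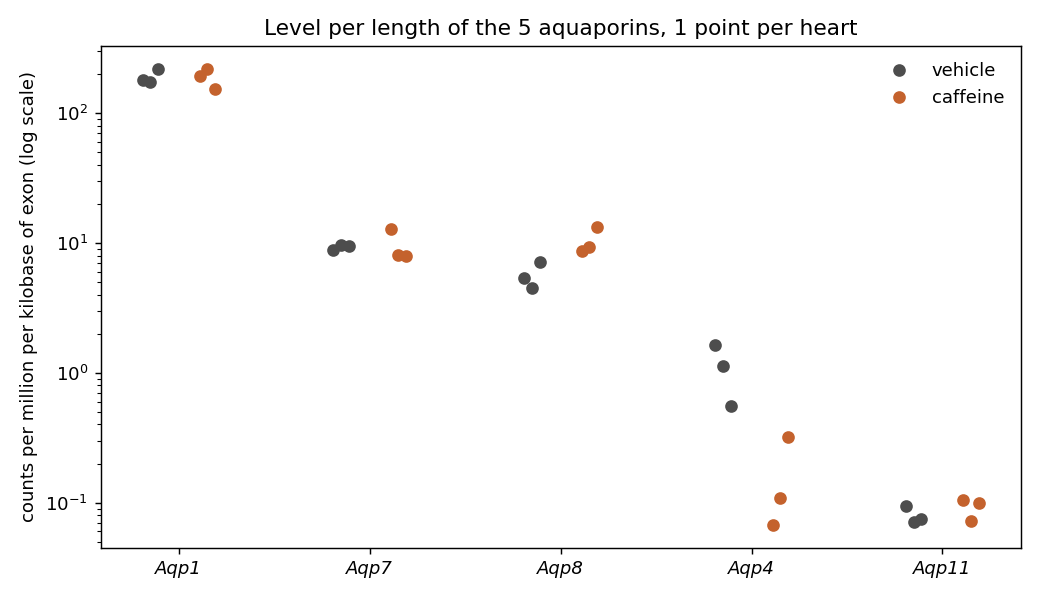
Level of each aquaporin per kilobase of exon (CPM per kilobase, log axis) in 3 vehicle and 3 caffeine hearts, 1 point per heart. Aqp1 lies far above the rest in every heart, Aqp7 and Aqp8 come next, and the range of Aqp4 in caffeine hearts overlaps that of Aqp11 at its lower end.

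Aqp1, the water channel of small vessels and red cells (ENSMUSG00000004655, chr6:55336432-55348555, plus strand), was read at 477, 455 and 575 CPM in the vehicle hearts and 508, 579 and 403 CPM in the caffeine hearts. The groups overlapped fully, and caffeine hearts held both the highest and the lowest value. The log2 fold change was −0.02 (SE 0.13, 95% interval −0.31 to 0.28, adjusted p = 0.986, edgeR quasi-likelihood), which leaves a ratio between 0.805 and 1.21. Without caffeine replicate 3, the lowest heart, the log2 fold change was 0.11, and without vehicle replicate 3 it was 0.09, so the sign of this small difference rested on single hearts.

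The cells known to carry Aqp1 were followed beside it. All 6 endothelial markers were tested, and summed to 632 to 719 CPM in vehicle and 638 to 697 CPM in caffeine hearts, and their log2 fold changes had a median of −0.01. Red cell markers summed to 714, 1225 and 1334 CPM in the vehicle hearts and 1630, 1198 and 771 CPM in the caffeine hearts, and the median of the 5 tested was 0.02. The red cell sum varied among hearts of the same group by more, in proportion, than Aqp1 did. Both were highest in replicate 3 of the vehicle group and lowest in replicate 3 of the caffeine group. The other hearts of each group stood in a different order. The part of red cells in the Aqp1 values was not tested. The quasi-likelihood test called no gene of either list, none had an unadjusted p below 0.05, and neither the exact test, DESeq2 nor limma-voom called any. In bulk tissue such as this, fewer cells of a type and less RNA per cell cannot be told apart.

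Aqp4, a water channel held at the membrane by the dystrophin complex (ENSMUSG00000024411, chr18:15389496-15410982, minus strand), had the widest gap between the groups. It was counted 104, 74 and 34 times in the vehicle hearts and 3, 6 and 17 times in the caffeine hearts. Scaled, these counts were 10.2, 7.0 and 3.44 CPM against 0.420, 0.677 and 1.99 CPM. Every caffeine heart was below every vehicle heart. The mean was 6.87 ± 3.36 CPM in vehicle and 1.03 ± 0.844 CPM in caffeine hearts (SD, n = 3 each).

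The log2 fold change of Aqp4 was −2.69 (SE 0.51, 95% interval −3.82 to −1.56), which is 6.46-fold lower after caffeine, and a ratio between 0.0708 and 0.338. The adjusted p was 0.102 in the quasi-likelihood test, so Aqp4 was not called, and it ranked 35 of 13092 genes by p. Neither group was tight. The exact Poisson 95% intervals, which cover counting error only, were 8.30 to 12.3 CPM for vehicle replicate 1 and 2.39 to 4.81 CPM for vehicle replicate 3, so hearts of the same group differed beyond counting error. Between the groups the nearest hearts were vehicle replicate 3 and caffeine replicate 3, whose interval was 1.16 to 3.19 CPM and overlapped the other.

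**Figure D2:**
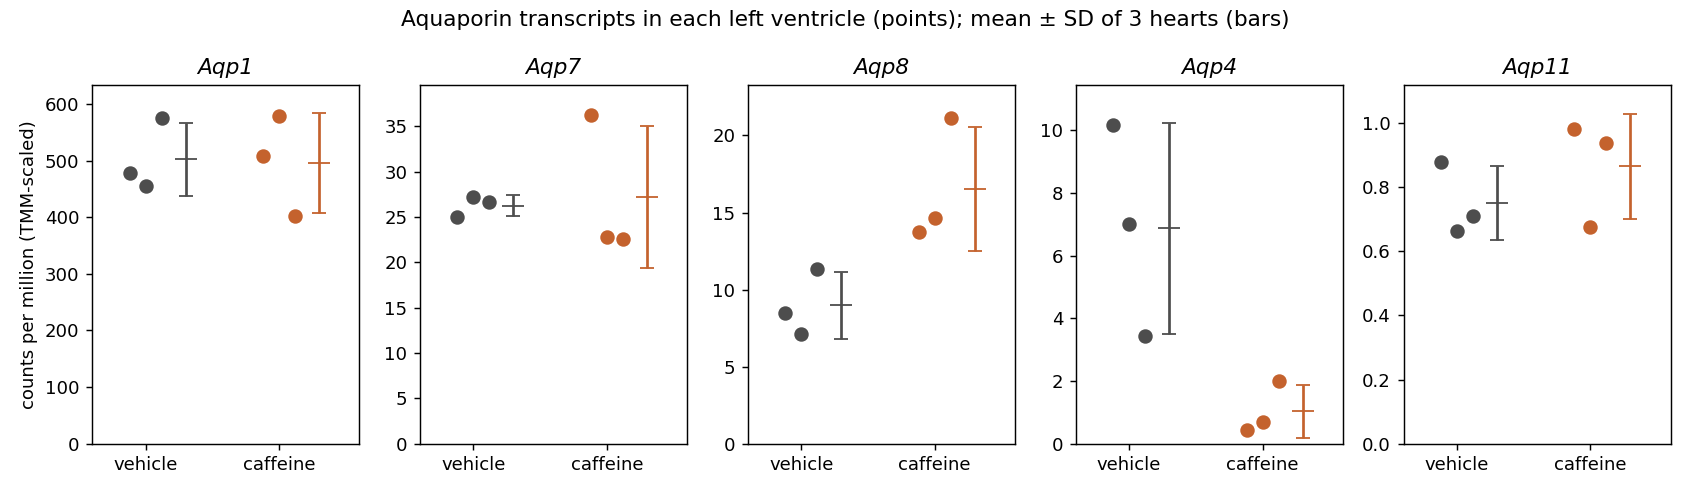
Level of each aquaporin in CPM (TMM-scaled, linear axes from 0, 1 panel per gene) in 3 vehicle and 3 caffeine hearts; points from left to right are replicates 1 to 3 and bars are mean ± SD of 3 hearts. The groups separate for Aqp4 (lower after caffeine) and Aqp8 (higher after caffeine) and overlap for Aqp1, Aqp7 and Aqp11.

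Dystrophin and its partners hold Aqp4 in the muscle membrane, and 8 genes of that complex were followed beside it. All 8 were tested and the quasi-likelihood test called none. None had an unadjusted p below 0.05, and the exact test, DESeq2 and limma-voom called none either. Their median log2 fold change was −0.03 beside 0.001 over all genes and the lowest was −0.23 (Sntb1). Dmd, which encodes dystrophin, was read at 172, 172 and 164 CPM in vehicle and 136, 172 and 152 CPM in caffeine hearts (log2 fold change −0.14, adjusted p = 0.733, edgeR quasi-likelihood), with overlapping groups. The summed level of the complex was 1130 to 1239 CPM in vehicle and 1100 to 1137 CPM in caffeine hearts.

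Markers of other cells that can come with ventricular tissue were read beside Aqp4. Of 6 Purkinje and conduction markers 5 were tested, and 3 of these, Cntn2, Hcn4 and Irx3, were lower in every caffeine heart than in every vehicle heart. Groups that did not overlap, in either direction, were found for 14.2% of all genes. Their summed level over the 6 markers was 83.3 to 87.4 CPM in vehicle and 52.4 to 66.4 CPM in caffeine hearts, and the median of the 5 log2 fold changes was −0.39. Cntn2, an adhesion protein of Purkinje cells, was read at 3.91, 7.29 and 13.5 CPM in vehicle and 0.420, 1.24 and 1.06 CPM in caffeine hearts (log2 fold change −3.12, SE 0.51, adjusted p = 0.0584, edgeR quasi-likelihood). Caffeine replicates 1 and 3 lay below the 1.09 CPM (library total only) that the low-count filter asked for in at least 3 hearts. Cntn2 was thus tested only because it was high in vehicle hearts, which limits its fold change and calls. Hcn4, a pacemaker channel, was read at 15.5, 15.9 and 9.83 CPM in vehicle and 7.42, 6.10 and 5.51 CPM in caffeine hearts (−1.12, SE 0.21, adjusted p = 0.102, edgeR quasi-likelihood).

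Within the vehicle group the markers differed in how they ran beside Aqp4, which fell from replicate 1 to replicate 3. Irx3 fell in the same order, at 49.5, 45.9 and 45.7 CPM, and Hcn4 was also lowest in replicate 3. Cntn2 rose from replicate 1 to replicate 3, and so did Gja5 (11.1, 11.9 and 12.9 CPM) and Etv1 (2.54, 4.16 and 4.36 CPM). Gja5, the gap junction protein of the conduction system, had overlapping groups (log2 fold change −0.05), and so had Etv1 (−0.33). The quasi-likelihood test called none of the conduction markers. In that test 3 had an unadjusted p below 0.05, as had 8.82% of all genes. The exact test and DESeq2, which called 0.726% and 0.512% of all genes, each called 2 (Cntn2 and Hcn4), and limma-voom called none. The part of conduction tissue in the Aqp4 difference was not tested.

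**Figure D3:**
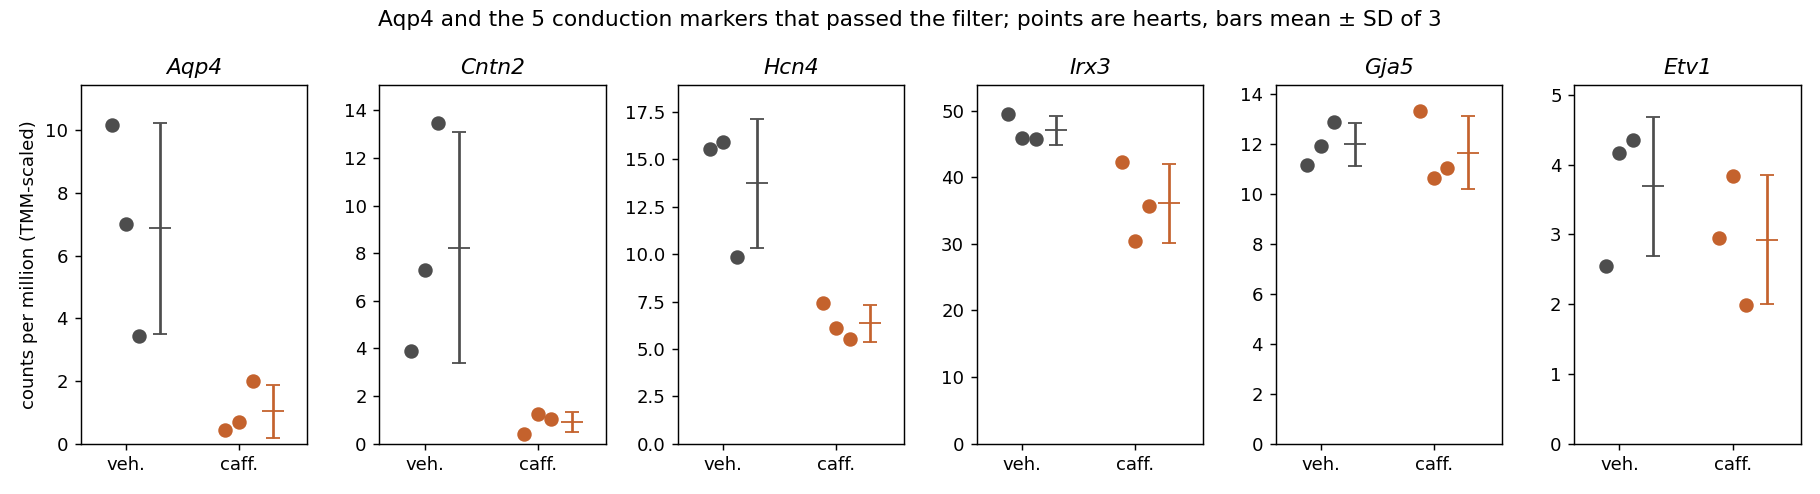
Aqp4 and the 5 conduction markers that passed the filter, in CPM (TMM-scaled, linear axes from 0) in 3 vehicle and 3 caffeine hearts; points from left to right are replicates 1 to 3 and bars are mean ± SD of 3 hearts. Cntn2, Hcn4 and Irx3 separate the groups as Aqp4 does, and Gja5 and Etv1 do not. Among vehicle hearts, replicate 3 is lowest for Aqp4, Hcn4 and Irx3 and highest for Cntn2, Gja5 and Etv1.

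Skeletal muscle, where Aqp4 is abundant in fast fibres, left few counts in these libraries. Of its 6 markers none passed the filter, the fast myosins Myh1 and Myh4 had no count in any heart, and the sum was 0.473 to 0.977 CPM in vehicle and 0 to 0.14 CPM in caffeine hearts. These sums, too, were lower in every caffeine heart, at levels of a few counts, and their part in the Aqp4 difference was not tested. Glia, the main site of Aqp4 in the brain, showed no such pattern: 6 markers summed to 6.18 to 8.40 CPM in vehicle and 7.0 to 8.54 CPM in caffeine hearts, with Gfap, the astrocyte filament, at or near 0. Mesothelial and epicardial markers summed to 6.79 to 16.1 CPM and 10.5 to 16.1 CPM, and overlapped as well. Few of these genes passed the filter, 2 glial and 2 mesothelial. The quasi-likelihood test called none of them and none of the cardiomyocyte or atrial markers, none had an unadjusted p below 0.05, and the exact test, DESeq2 and limma-voom called none.

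Aqp8, a channel for water that is also known to pass hydrogen peroxide and ammonia (ENSMUSG00000030762, chr7:123462291-123468004, plus strand), was counted 87, 75 and 112 times in the vehicle hearts and 98, 130 and 180 times in the caffeine hearts. Scaled with TMM, the levels were 8.50, 7.10 and 11.4 CPM against 13.7, 14.7 and 21.1 CPM. Every caffeine heart was above every vehicle heart, although the raw count of caffeine replicate 1 was below that of vehicle replicate 3. The mean was 8.98 ± 2.17 CPM in vehicle and 16.5 ± 4.02 CPM in caffeine hearts (SD, n = 3 each).

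The log2 fold change of Aqp8 was 0.88 (SE 0.21, 95% interval 0.42 to 1.35), a ratio of 1.85 (1.34 to 2.55). Its adjusted p was 0.199 in the quasi-likelihood test, so Aqp8 was not called, and it ranked 101 of 13092 genes by p. As a share of the summed per-kilobase level of all 12 mouse aquaporins, Aqp8 made up 2.38% to 3.04% in vehicle and 3.90% to 7.62% in caffeine hearts. Aqp4 made up 0.234% to 0.824% and 0.0313% to 0.183%.

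The per-kilobase ratio of Aqp8 to Aqp4, taken within each heart and so free of its scaling, was 3.3, 4.0 and 13 in the vehicle hearts and 129, 85.4 and 41.7 in the caffeine hearts. The hearts of the groups did not overlap in this ratio, which was taken after the values were seen, from the members with the widest differences. Every caffeine heart was above every vehicle heart in scaled Aqp8 and below in Aqp4, so the ratio had to separate the groups. It adds no further evidence of a difference.

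Aqp7, the aquaglyceroporin (ENSMUSG00000028427, chr4:41033074-41048139, minus strand), was read at 25.01, 27.2 and 26.6 CPM in the vehicle hearts and 36.3, 22.8 and 22.6 CPM in the caffeine hearts. The vehicle hearts lay close together. In the caffeine group replicate 1 was above all 3 vehicle hearts and the other 2 below them. The log2 fold change was 0.04 (SE 0.17, 95% interval −0.33 to 0.42, adjusted p = 0.971, edgeR quasi-likelihood), a ratio between 0.793 and 1.34. Without caffeine replicate 1 it was −0.21, so that heart set the sign.

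Glycerol that enters through Aqp7 is phosphorylated by glycerol kinase, and lipases release glycerol inside the cell. All 7 genes of this list were tested and the quasi-likelihood test called none. In that test 1 of the 7 had an unadjusted p below 0.05, beside 8.82% of all genes, and the exact test, DESeq2 and limma-voom called none. The gene was Lipe, the hormone-sensitive lipase, at 53.8, 44.1 and 45.5 CPM in vehicle and 45.8, 30.6 and 34.5 CPM in caffeine hearts (log2 fold change −0.38, adjusted p = 0.478, edgeR quasi-likelihood), with overlapping groups. Gk, glycerol kinase, had a log2 fold change of 0.01, and the range of the list closed with Gpd1, a glycerol-3-phosphate dehydrogenase, at 0.13. The median was 0.01.

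Fat cells carry Aqp7 too, and their markers were barely counted. None of 6 adipocyte markers passed the filter, and their sum was 0.709 to 3.13 CPM in vehicle and 0.113 to 0.586 CPM in caffeine hearts. That sum was lower in every caffeine heart, whereas Aqp7 overlapped between the groups. Its part in the Aqp7 values was not tested.

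Aqp11, the divergent intracellular member (ENSMUSG00000042797, chr7:97724006-97738289, minus strand), was counted 9, 7 and 7 times in the vehicle hearts and 7, 6 and 8 times in the caffeine hearts. It did not pass the filter and was not tested. Scaled, it was read at 0.879, 0.662 and 0.709 CPM against 0.980, 0.677 and 0.938 CPM, with overlapping groups, and means of 0.750 ± 0.114 and 0.865 ± 0.164 CPM (SD, n = 3 each). A difference between the groups was not detectable at this depth.

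The filter asked for 1.09 CPM, scaled by the library total alone, in at least 3 hearts. Aqp4 met it through its 3 vehicle hearts and 1 caffeine heart, so it was tested only because it was high in one group. The other 7 mouse aquaporins did not pass. Aqp2, the vasopressin-regulated channel of the kidney, was counted 8 times over all 6 hearts, Aqp3 and Aqp5 3 times each, and Aqp6 and Aqp9 2 times each. Mip, the lens channel, and Aqp12 had no count in any heart.

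Of the 4 aquaporins tested, the quasi-likelihood test called 0, while 0.107% of all genes were called. Aqp4 and Aqp8 had an unadjusted p below 0.05, as had 8.82% of all genes. Their groups did not overlap, as was so for 14.2% of all genes in either direction. Since the members were chosen with such values in view, nothing is read from these counts.

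Whether Aqp4 and Aqp8 were called changed with the test, while their fold changes stayed close. The edgeR exact test called both (adjusted p = 0.000129 for Aqp4 and 0.0189 for Aqp8) and called 0.726% of all genes. DESeq2 called both (4.21e-05 and 0.0351) and 0.512% of all genes. Both were also called with no filter on low counts, where 1.07% of the larger set of genes were. With limma-voom, which called 0.107% of all genes, neither was called (0.190 and 0.211).

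Aqp4 alone was called when libraries were scaled by their total only (adjusted p = 0.0468, edgeR quasi-likelihood, 0.206% of all genes called) and when vehicle replicate 3 was left out (−3.01 on the log2 scale, adjusted p = 0.0356, edgeR quasi-likelihood, 0.211% called). With the replicate number as a block, 0.306% of all genes were called and neither aquaporin was (adjusted p = 0.133 for Aqp4 and 0.0552 for Aqp8, edgeR quasi-likelihood). Across these and the other settings run, leaving out each heart included, the log2 fold change stayed between −3.58 and −2.30 for Aqp4 and between 0.67 and 1.08 for Aqp8.

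**Figure D4:**
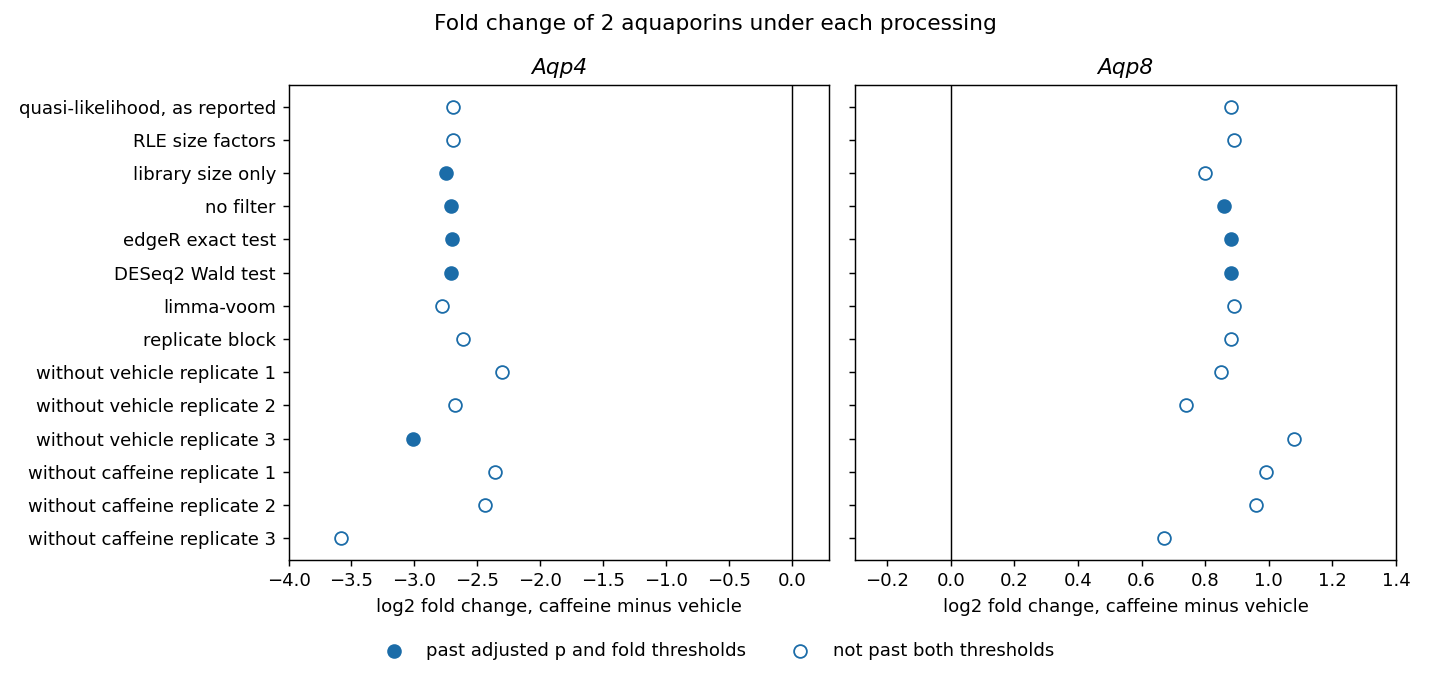
Log2 fold change (caffeine minus vehicle) of Aqp4 and Aqp8 under the quasi-likelihood test as reported and under 13 other settings, 1 point each; filled points passed both the adjusted p and the fold thresholds. Aqp4 stays between −3.58 and −2.30 and Aqp8 between 0.67 and 1.08, while the filled points change from setting to setting.

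Genes that act with aquaporins in water balance were read from 2 further lists. Of 5 genes of the osmotic stress response, 4 were tested, and the median log2 fold change was 0.05, from −0.31 (Slc6a6, the taurine transporter) to 0.36 (Slc5a3, a myo-inositol transporter). Nfat5, the transcription factor of that response, was read at 36.8, 50.9 and 47.0 CPM in vehicle and 44.7, 51.5 and 41.7 CPM in caffeine hearts, and the groups overlapped. Of 10 channels and transporters of cell volume, 9 were tested, with a median of 0.01, from −0.30 (Slc12a2, a sodium, potassium and chloride cotransporter) to 0.22 (Lrrc8d, a subunit of the volume-regulated anion channel). Lrrc8d was the sole one of the 9 whose groups did not overlap, beside 14.2% of all genes. The quasi-likelihood test called no gene of either list, none had an unadjusted p below 0.05, and the exact test, DESeq2 and limma-voom called none.

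For each tested member, the 3 genes with the most similar pattern over the 6 hearts were found by the root mean square difference of log2 CPM after centring each gene on its own mean. For Aqp4, whose own root mean square deviation was 1.47, they were Ankrd63 (0.508), Ccl11 (0.755) and Zkscan4 (0.812). Ccl11 encodes an eosinophil-attracting chemokine and Zkscan4 a zinc finger protein. Their log2 fold changes were −1.80 (adjusted p = 0.189), −1.37 (0.134) and −1.18 (0.561) in the edgeR quasi-likelihood test, and the groups of Zkscan4 overlapped. Since these genes were picked for likeness to Aqp4 over the same hearts, negative fold changes follow from the choice. Zkscan4 was also near the floor, at 0.420, 0.226 and 1.29 CPM in the caffeine hearts. Ankrd63 was likewise at 0.420 CPM in caffeine replicate 1. The nearest gene was at 0.508 from Aqp4, and the nearest gene to Aqp8 at 0.129. The own deviations of Aqp4 and Aqp8 differed too, at 1.47 and 0.509, so these distances cannot be compared directly.

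For Aqp8 (own deviation 0.509) the nearest were Nabp1 (0.129), a single-stranded DNA-binding protein, Sgsm3 (0.139) and Casp12 (0.146), a caspase. Their log2 fold changes were 0.64, 0.83 and 0.65, again of the sign that follows from the choice. For Aqp1 (own deviation 0.185) they were Gm13341 (0.0297), Sat2 (0.0504) and Amn1 (0.0513), and for Aqp7 (0.226) Irf1 (0.0559), 1600020E01Rik (0.0590) and Rpl9-ps7 (0.0635). Rpl9-ps7 is named as a ribosomal protein pseudogene, and reads of its parent gene could have been split with it. Several of these genes were read at low levels, where counting error is large beside such distances. Over the 6 hearts Gm13341 was at 1.88 to 2.74 CPM and Sat2 at 1.41 to 2.26 CPM. 1600020E01Rik was at 1.64 to 2.80 CPM and Sgsm3 at 0.852 to 2.81 CPM. These likenesses are over 6 hearts of 2 groups and share the same libraries.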

How the data were processed

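Left ventricles of 3 vehicle and 3 caffeine mice were sequenced from poly(A) RNA as single-end reads in a single run. The authors used FastQC on the reads, TopHat2 for mapping to mm10 and HTSeq with Ensembl release 79 for counting, and deposited raw counts, not normalized, of 43629 genes per heart. Tool versions and the strand setting of the counting are not given in the sources used here. The end of dosing follows the methods of the study, and a label gives a later day.

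The 5 members and all gene lists were chosen with earlier results of these data known. The rule for named genes took every aquaporin, list genes that were called or set a range, and the 3 nearest genes per tested member. Other list genes (Dmd, Gk, Nfat5, Hcn4, Irx3, Etv1, Gfap, Myh1 and Myh4) were named after their values were seen, and 2 list genes are not reported here. Counts were filtered with filterByExpr (minimum count 10, minimum total 15), scaled with TMM, and tested by glmQLFTest after glmQLFit in a model of treatment alone. CPM values use TMM factors, apart from the filter cutoff and the levels given for 3 counts. Lengths are the union of exons in GENCODE M21, and 1081 identifiers have no symbol there. No exon of a member shares bases with another gene. Totals were 7613011 to 10483101 per heart. The Poisson intervals of single hearts cover counting error only. The intervals of log2 fold changes come from the quasi-likelihood fit and include the spread between hearts. The fits were tested on simulated data. The exact test, DESeq2, limma-voom, other scalings, no filter, a replicate block and leaving out each heart were tried as alternatives.

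Fits used edgeR 4.0.16, limma 3.58.1 and DESeq2 1.42.0 under R 4.3.3. Summaries used SciPy 1.17.1, NumPy 2.4.6 and pandas 2.3.3, and plots Matplotlib 3.10.9, under Python 3.11.15.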

Additional observations from a re-analysis of the deposited data

How the results depend on the processing

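The number of genes called was 14 with the quasi-likelihood test, 67 with DESeq2, 95 with the exact test, 27 with library size only, 240 with no filter, 40 with the replicate block, and 4 to 28 when 1 heart was left out (4 without caffeine replicate 3 or vehicle replicate 2, 8 without caffeine replicate 1, 22 without caffeine replicate 2, 27 without vehicle replicate 1 and 28 without vehicle replicate 3). Aquaporins called numbered 0, and 2 with DESeq2, 2 with the exact test, 2 with no filter, 1 with library size only, and 0 to 1 when 1 heart was left out. Conduction markers called numbered 0, and 2 with the exact test and 2 with library size only. The small difference of Aqp7 turned to −0.05 with library size only, −0.0004 with limma-voom and −0.21 without caffeine replicate 1 (0.16 without caffeine replicate 2). That of Aqp1 ran from −0.14 without caffeine replicate 2 to 0.11 without caffeine replicate 3, and was 0.09 without vehicle replicate 3. The Aqp11 level of 0.0858 CPM per kilobase was 0.139 with the longest transcript and 0.216 with the longest protein-coding transcript, an alternative chosen after seeing the data. These Aqp11 levels were the same CPM values divided by shorter lengths. The causes of the other changes were not tested. Hearts with the same replicate number did not deviate together (correlations 0.045, −0.03 and −0.038), so the numbers were not taken as pairing the hearts, and the block of 40 calls says nothing of a shared litter. The median log2 fold change of all genes was 0.001, and −0.084 with library size only. At 3 to 17 counts, depth limits Aqp4 in caffeine hearts and Aqp11 in all.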
